A study of Mus musculus with 4 samples.

Results

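CD8 T cells of malignant mouse ascites were described from single-cell RNA sequencing of cells taken from mice given BTYNB, an inhibitor of the RNA-binding protein Igf2bp1, alone or together with an antibody that blocks PD-1 (combination). The cells were chosen by their own transcripts. A cell was kept if it had at least 200 detected genes and at most 33% of its unique molecular identifiers (UMIs, 1 per captured transcript) from mitochondrial genes. It was called a CD8 T cell if it had at least 2 UMIs of Cd3d, Cd3e and Cd3g, at least 1 of Cd8a and Cd8b1, none of Cd4 or Foxp3, and at most 2 of Cd79a and Cd79b, of Lyz2, and of the keratins Krt7, Krt8, Krt18 and Krt19. These limits selected 1115 cells, 1080 from the BTYNB library and 35 from the combination library, of 25325 cells kept in both libraries and 45178 kept in all 4 libraries of the series.

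The female C57BL/6 mice carried intraperitoneal ID8-Trp53-/- cells, a Trp53-deficient mouse ovarian surface epithelial line that was also marked with a fluorescent protein. Treatment started 7 days after engraftment, was given 2 times a week and ended at about 3 mL of ascites. The control library came from mice given DMSO with an IgG2a control antibody, the BTYNB library from BTYNB with IgG2a, the anti-PD-1 library from DMSO with the PD-1 antibody RMP1-14, and the combination library from BTYNB with RMP1-14. The labels give 50 mg/kg of BTYNB and 100 ng of antibody per dose, while other amounts stand in the methods, and the files do not settle the difference. Ascites cells had been depleted of erythrocytes, cryopreserved and pooled over the animals of a treatment, and dead cells had been removed, which the labels limit to where this applied. Each treatment was thus 1 library, and neither the spread between animals nor the effect of a single animal can be told apart from the treatment. No test between treatments was possible. Intervals below are exact 95% intervals (Clopper-Pearson for shares, Poisson for levels, and the binomial share of the summed UMIs for ratios). They cover counting error only.

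CD8 T cells recognise peptides on class I molecules through a T cell receptor that signals through the CD3 chains, with Cd8a and Cd8b1 as coreceptor. Naive and central memory cells recirculate through lymph nodes with the help of the chemokine receptor Ccr7, under the transcription factors Tcf7 and Lef1. Effector cells carry granzymes, perforin and chemokines such as Ccl5, and cells that meet antigen persistently keep inhibitory receptors such as Pdcd1 (PD-1), Lag3, Havcr2 (TIM-3) and Tigit together with the factor Tox.

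The BTYNB library held 1080 CD8 T cells among 18283 kept cells (5.91%, 5.57 to 6.26). The control library held 2 such cells among 7834, and the anti-PD-1 library 6 among 12019. Of these last 6 cells, the tumour markers (Krt7, Krt8, Krt18, Krt19, Upk3b, Msln and Wt1) took 0 to 18 UMIs and the receptor constant genes Trac, Trbc1 and Trbc2 took 0 to 9. The libraries spanned different ranges of depth. The smallest deposited cell of the BTYNB library had 869 UMIs, that of the anti-PD-1 library 3533, that of the control library 4438, and that of the combination library more than any of these. Most CD8 T cells of the BTYNB library were smaller than that smallest combination cell, with a median of 2221.5 UMIs (931 to 22772) against 6226 (5240 to 14146) in the combination. Libraries were therefore compared only over deep cells, meaning cells with at least as many UMIs as the smallest combination cell. Among deep cells the BTYNB library held 54 CD8 T cells among 5521 (0.978%, 0.736 to 1.27) and the combination library 35 among 7042 (0.497%, 0.346 to 0.691). The share of CD8 T cells among all T cells of the same gates was 51.9% (54 of 104; 41.9 to 61.8) and 66.0% (35 of 53; 51.7 to 78.5), respectively. These intervals overlap, and the share is not given for the narrower set defined below. Between 0 and 4 cell barcodes were shared by any pair of libraries, and no barcode belonged to a CD8 T cell in both libraries of a pair.

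The limits of the gate shaped the class. In the BTYNB library 320 cells lay just inside the CD3 limit with exactly 2 UMIs, and their Trac level was 611 UMIs in each 1000000 UMIs of the summed cells (CPM), with Ccl5 at 2435 CPM. The 280 cells just outside, with 1 UMI, had 729 and 2254 CPM. At the CD8 limit, 206 cells had exactly 1 UMI of Cd8a and Cd8b1, and their level of Trdc, the constant gene of the delta chain of gamma-delta T cells, was 59.6 CPM. It was 483 CPM in the 701 cells outside with 0 UMIs. The keratin limit removed 57 of 110 combination cells and 89 of 2316 BTYNB cells that had passed the earlier steps.

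Part of the deep cells carried transcripts of class II genes and dendritic cells. The dendritic list summed to 391 CPM in the deep BTYNB members and to 13.2 CPM in the 1026 smaller ones. A narrower set was defined after these values were seen. It asked for at least 1 UMI of Trac, Trbc1 and Trbc2, at most 20 UMIs of the class II genes H2-Ab1, H2-Aa, H2-Eb1 and Cd74, and at most 2 UMIs of each of 3 sets, namely the dendritic markers Flt3, Xcr1, Clec9a, Cd209a and Zbtb46, the NK receptors Ncr1, Klrb1c, Klra8 and Klra4, and the neutrophil granule genes Mpo, Elane and Prtn3. These limits set aside 53 of the 1026 smaller BTYNB cells, 22 of 54 deep BTYNB cells (40.7%, 27.6 to 55.0) and 16 of 35 combination cells (45.7%, 28.8 to 63.4). Class II genes were the most frequent reason in the deep cells, for 17 BTYNB and 14 combination cells. The 22 deep BTYNB cells set aside had a median of 225 class II UMIs and 5.5 receptor constant UMIs, and 15 of them had a dendritic UMI. The 32 deep BTYNB cells that stayed had medians of 1 and 18.5. In the combination library the 16 cells set aside had medians of 126 class II and 2 receptor constant UMIs, against 3 and 15 in the 19 that stayed. The class II and dendritic differences follow in part from the limits themselves. Mouse Xcr1+ dendritic cells are known to carry Cd8a, and a pair of cells captured together can carry both sets of transcripts. Which of these was present was not tested. Of the scrublet doublet scores, the top 5% of each library held 30 of all 1080 BTYNB members, 11 of the 54 deep ones and 0 of the 35 combination members.

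**Figure D1:**
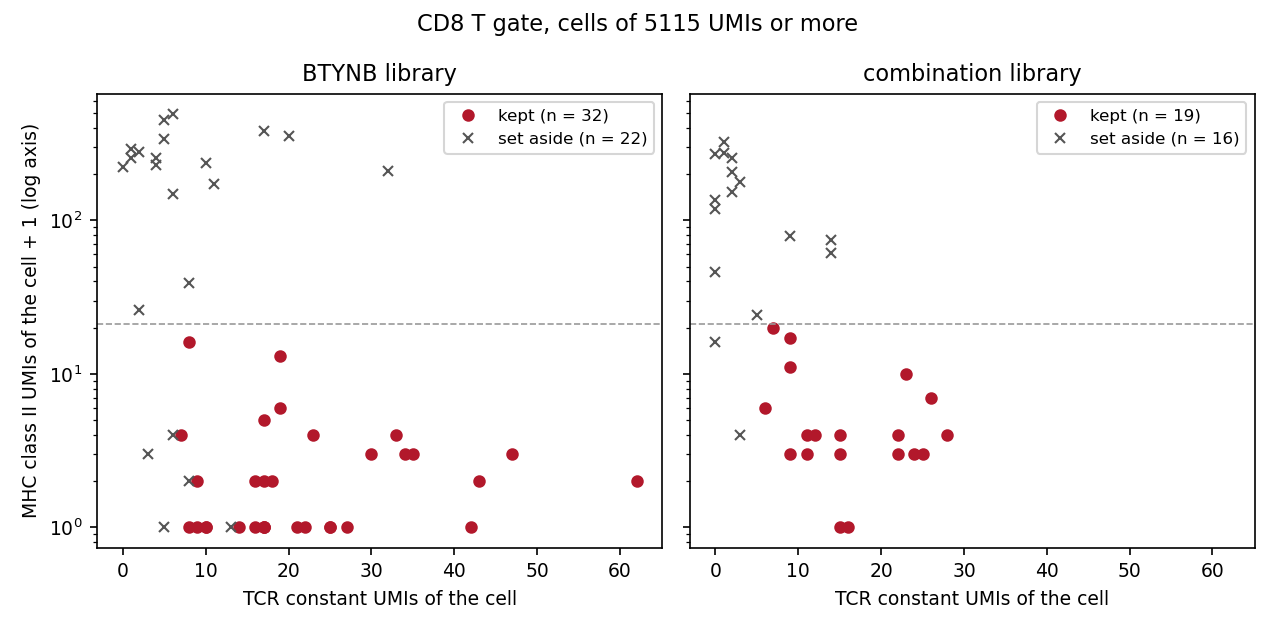
Each point is 1 deep CD8 T cell, with the UMIs of Trac, Trbc1 and Trbc2 on the horizontal axis and the UMIs of 4 class II genes plus 1 on a log vertical axis, for the BTYNB (54 cells) and combination (35 cells) libraries. The cells that stayed lie below the dashed line at 20 class II UMIs, as the limits require, with receptor constant UMIs between 6 and 62. Most of the 22 and 16 cells set aside lie above it with few receptor UMIs.

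Markers of other cell types were found throughout the class. In the 1080 BTYNB members the defining CD4 T markers Cd4 and Foxp3 were at 0 by the gate, and Cd40lg had UMIs in 8 cells. NK markers (Ncr1, Klrb1c, Klra8, Klra4, Eomes, Gzma) had a UMI in 180 cells, B cell markers (such as Cd79a, Cd79b, Ms4a1, Ighm and Igkc) in 289, macrophage markers (Lyz2, Csf1r, Adgre1, Cd68, C1qa, C1qb, Mrc1) in 122, dendritic markers in 43, neutrophil markers (S100a8, S100a9, Csf3r, Retnlg) in 31 and tumour markers in 380. Erythroid markers (the hemoglobin genes Hba-a1, Hba-a2, Hbb-bs and Hbb-bt) had the highest sum of these lists outside the T cells, with 969 UMIs (347 CPM) in 73 cells, and 682 of these UMIs lay in 3 cells. The next was the tumour list with 692 UMIs (248 CPM). In the smaller BTYNB members the erythroid list summed to 410 CPM, the tumour list to 274 CPM and the B cell list to 167 CPM, against 13.6, 111 and 79.2 CPM in the deep ones. The macrophage list went the other way, at 59.2 and 181 CPM, as did the neutrophil list, at 53.6 and 147 CPM. The narrower limits left the erythroid and tumour lists of the smaller cells at 426 and 267 CPM, and the part of these transcripts in the results below was not tested. Among deep cells the tumour list summed to 111 CPM in the BTYNB members and to 284 CPM in the combination members, and the dendritic list to 391 and 442 CPM. NK markers had a UMI in 12 of 54 BTYNB and 21 of 35 combination members, and in the latter all NK list UMIs were of Eomes and Gzma, with Ncr1, Klrb1c, Klra8 and Klra4 at 0.

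Within the BTYNB library the CD8 T cells carried abundant naive and recirculation transcripts. The naive list (12 genes) summed to 5726 CPM, against 4284 CPM in the CD4 T gate (308 cells, Cd4 UMIs and no CD8 UMIs). Ccr7, the receptor that guides cells into lymph nodes, was at 177 CPM (161 to 193) against 73.1 CPM in CD4 T cells and 8.82 CPM in NK cells (425 cells). After each cell was thinned to 1000 UMIs, 16.1% of CD8 T cells had a Ccr7 UMI, against 5.9% of CD4 T cells. In tumour cells of the same library, which should lack it, the thinned share was 0.535% at a median of 15280 UMIs before thinning. Tcf7 was at 974 CPM (938 to 1010) and Il7r, the receptor for the survival cytokine IL-7, at 1062 CPM. Both were close to their CD4 T levels of 913 and 1043 CPM. S1pr1, which lets lymphocytes leave tissues along a sphingolipid gradient, was lower than in CD4 T cells, at 188 CPM (172 to 205) against 332 CPM.

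Memory genes were divided. Ly6c2, a surface protein of memory and activated CD8 T cells, stood at 924 CPM (889 to 961) against 36.5 CPM in CD4 T cells, and 44.1% of thinned CD8 T cells had a UMI of it, compared with 0.197% of tumour cells. Eomes, a T-box factor of memory and cytotoxic cells, was at 69.9 CPM (60.4 to 80.4) in 140 cells, far below the 516 CPM of NK cells and above the 5.84 CPM of CD4 T cells. Cd44, the adhesion receptor that rises on antigen-experienced cells, was at 165 CPM, lower than the 349 CPM of CD4 T cells. Ly6c1 was at 3.22 CPM against 45.3 CPM.

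Effector transcripts were led by 1 chemokine. Ccl5 reached 3677 CPM (3606 to 3749), close to the 3761 CPM of NK cells and above the 918 CPM of CD4 T cells, and a Ccl5 UMI was found in 55.4% of thinned CD8 T cells, 21.6% of CD4 T cells and 0.676% of tumour cells. Nkg7, a protein of cytotoxic granules, was at 529 CPM (503 to 557) against 197 CPM in CD4 T cells and 1146 CPM in NK cells. The granzymes and perforin lay in few cells. Gzmb was at 87.4 CPM (76.8 to 99.1) in 65 of 1080 cells, Gzma at 40.1 CPM in 35 cells, Gzmk at 16.8 CPM (12.4 to 22.4) in 27 cells and Prf1 at 93.1 CPM (82.2 to 105) in 94 cells. In NK cells Gzma was at 2227 CPM and Gzmb at 301 CPM. Both were thus lower in the CD8 T cells than in NK cells of the same fluid, while Gzmk, at 9.50 CPM in NK cells, was not. Ifng was at 55.2 CPM, against 52.6 CPM in CD4 T cells. Klrg1, a receptor of terminally differentiated effector cells, had 5 UMIs in 2 cells, against 96.4 CPM in NK cells. For Ccl3 and Ccl4 the sums rested on few cells, since 1 cell held 186 of 572 Ccl3 UMIs and 183 of 713 Ccl4 UMIs.

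Transcripts of the exhaustion list (14 genes) summed to 762 CPM, below the 959 CPM of CD4 T cells, and the median cell had none. Pdcd1 had 80 UMIs in 52 cells, a level of 28.7 CPM (22.7 to 35.7) against 24.8 CPM in CD4 T cells and 0 UMIs in NK cells. Lag3 was at 27.2 CPM (21.4 to 34.1) and was not detected in CD4 T cells, for which 0 UMIs allow a level of up to 4.38 CPM (3 counts). Havcr2 was at 40.1 CPM (33 to 48.3) against 2.92 CPM. Lag3 and Havcr2 set CD8 apart from CD4 T cells, while Pdcd1 and others did not. Tigit was at 36.2 CPM (29.5 to 44.0), against 36.5 CPM in CD4 T cells, and Tox at 165 CPM (151 to 181) against 136 CPM. Ctla4, an inhibitory receptor that competes with Cd28, was lower in CD8 than in CD4 T cells, at 168 CPM (153 to 184) against 549 CPM. It made up 168 of the 762 CPM of the list in CD8 T cells and 549 of the 959 CPM in CD4 T cells. The order of these sums thus rested on Ctla4. Cxcl13 had 0 UMIs, which allows up to 1.07 CPM, and Layn had 1 UMI.

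**Figure D2:**
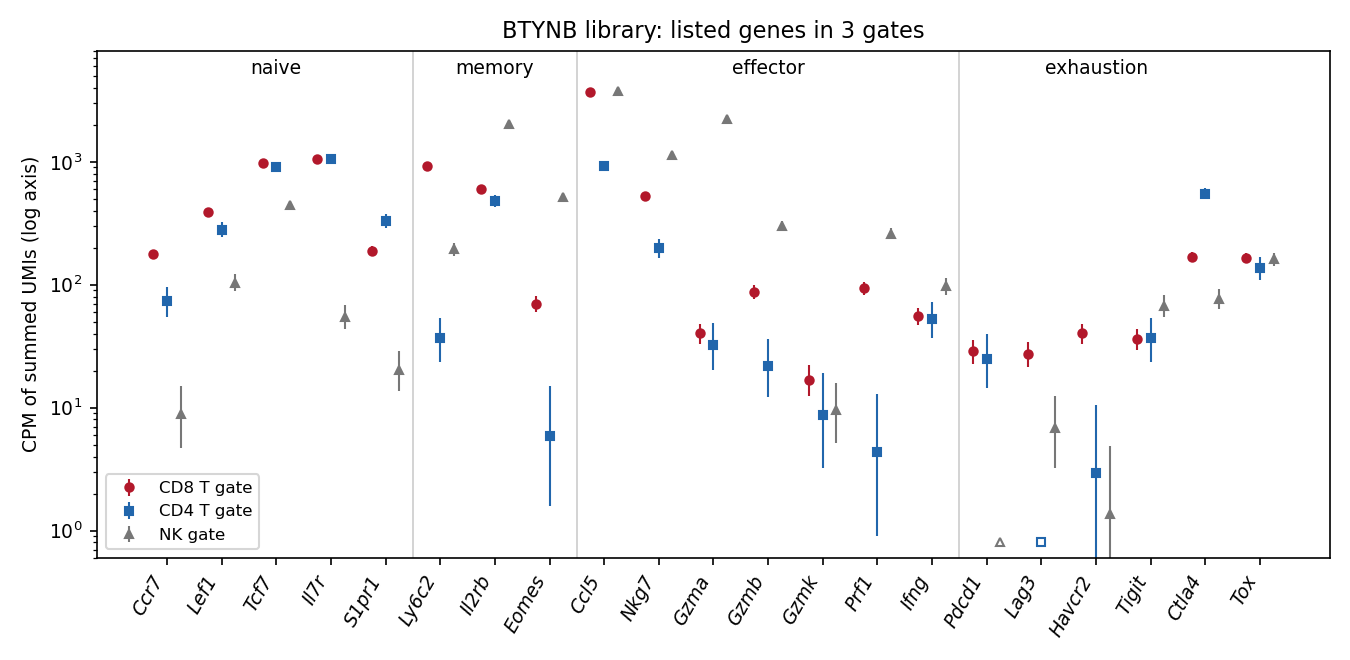
Levels of naive, memory, effector and exhaustion genes in the CD8 T (1080 cells), CD4 T (308) and NK (425) gates of the BTYNB library, as CPM of summed UMIs on a log axis with exact 95% Poisson intervals, and open symbols for 0 UMIs. Ccl5 stood at 3677 CPM in CD8 T cells and 918 CPM in CD4 T cells, and Pdcd1 at 28.7 and 24.8 CPM.

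The CD8 T cells were then compared with CD4 T cells of the BTYNB library across 7374 genes with at least 50 UMIs over both, leaving out the genes of the gates. A gene was called where its CPM differed at least 2-fold after addition of 10 CPM to both, and ratios below are given without that addition. Of all genes, 135 (1.83%) were called higher and 154 (2.09%) lower in CD8 T cells, and the median log2 ratio was -0.10. Among the effector genes 7 of 12 measured at this minimum were called higher and none lower, with a median of 1.31. The exhaustion list gave 4 higher and 1 lower of 11, with a median of 0.27. The innate-like receptors, which are shared with NK cells, gave 7 higher and 0 lower of 11, with a median of 1.46, and the activation list 1 higher and 6 lower of 13. Genes such as Prf1 (260 and 3 UMIs) and Klrd1 (1046 and 21 UMIs) reached the minimum through the CD8 T cells. The CD8 T cells also summed to more UMIs, 2791637 against 684351. The counts of genes called higher were thus partly set by the minimum. Ly6c2 differed by 4.66 on the log2 scale (4.10 to 5.29), Klrd1, which encodes the CD94 chain of NK receptors, by 3.61 (2.99 to 4.31) and Prf1 by 4.41 (2.85 to 6.70). Samd3 had 255 UMIs in 196 CD8 T cells and 1 UMI in CD4 T cells, a log2 ratio of 5.97 (3.48 to 11.28). On the other side, Cd40lg, the ligand through which helper cells license B cells and dendritic cells, differed by -5.49 (-6.66 to -4.50). The costimulatory receptor Icos, at 75.6 against 454 CPM, gave -2.59 (-2.85 to -2.33), and the transcription factors Rora and Maf gave -2.93 and -2.92. The myeloid granule genes Mpo, Prtn3 and Elane were also called higher, with all their UMIs in 3 or 4 CD8 T cells, and S100a9 and Cxcl2 were called lower.

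The coreceptor chains and receptor segments were varied. Both Cd8a and Cd8b1 were found in 654 of 1080 BTYNB cells (60.6%, 57.6 to 63.5), Cd8a alone in 159 (14.7%) and Cd8b1 alone in 267 (24.7%). Intestinal and innate-like T cells carry CD8 as a pair of alpha chains, and Ikzf2 and Fcer1g are among their genes. Ikzf2 was at 125 CPM in the cells with Cd8a alone and at 62.2 CPM in those with both chains, and at 131 and 63.4 CPM among the narrowed cells. Fcer1g, which myeloid cells also carry, was at 177 and 73.5 CPM, but 47 of its 69 UMIs in the cells with Cd8a alone lay in 6 deep cells, and among the narrowed cells it was at 65.7 CPM (20 UMIs) and 29.0 CPM. Median UMIs of these cells were 2028 and 2395.5, and whether a missing chain was absent or not captured was not tested. Beta chain V segments were read in 94 BTYNB cells, 92 of them with 1 segment. These 92 cells used 17 of the 22 Trbv segments in the files, and Trbv17 was the most frequent with 12 cells (13.0%). In the combination library only 5 cells had a Trbv UMI, and Trbv2 was seen in 3 of the 4 with 1 segment. No clone can be read from segments alone.

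To describe how the naive and effector transcripts were distributed over cells, each BTYNB member of at least 1000 UMIs (1071 cells) was thinned to 1000 UMIs. It was classed by whether it had a UMI of 6 naive genes (among them Ccr7, Lef1, Dapl1, Igfbp4 and Actn1) or of 8 effector genes (Ccl5, Nkg7, Gzma, Gzmb, Gzmk, Prf1, Ifng, Ccl4). The largest class held both, with 523 cells (48.8%, 45.8 to 51.9). Only naive genes were found in 319 cells (29.8%, 27.1 to 32.6), only effector genes in 194 (18.1%, 15.9 to 20.6) and neither in 35 (3.27%). The classes are ranges of a count and not cell types, and 54 of the 319 naive-only and 19 of the 194 effector-only cells rested on exactly 1 UMI. In the CD4 T gate the mixed class was smaller, with 39 of 305 cells (12.8%, 9.25 to 17.1), and 117 were naive-only, 55 effector-only and 94 neither.

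The classes moved with the depth of the cells although each cell had been thinned. From 1000 to 1500 UMIs, 53.3% of 167 cells were naive-only and 12% effector-only, whereas 11.1% of the 54 deep cells were naive-only and 55.6% effector-only. Between these ends the naive-only share was 43.2%, 19.1% and 18.0% in the bins up to 2000, up to 3000 and up to the deep cells, and the effector-only share 13.6%, 16.3% and 22.7%. The proliferation list (10 genes, including Mki67 and Top2a) went from 133 CPM in the lowest bin to 2922 CPM in the highest, and the exhaustion list from 400 to 1418 CPM. Over the same bins the naive list went from 7268 to 1504 CPM. The highest bin also held the cells with class II and dendritic transcripts, and among its 32 narrowed cells 24 were effector-only (75%, 56.6 to 88.5) and 1 naive-only. Naive-only cells, like those of the other classes, lay mostly among cells smaller than any in the combination matrix. Deep cells were 6 of the 319 naive-only, 16 of the 523 mixed and 30 of the 194 effector-only cells, against 54 of all 1071.

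**Figure D3:**
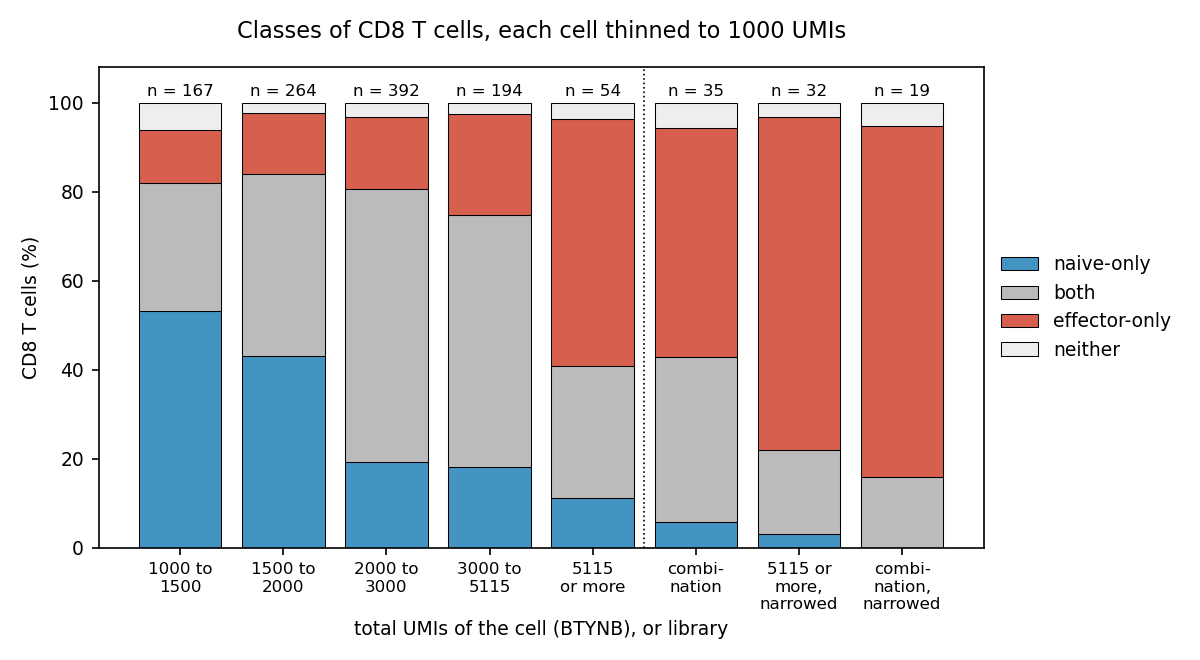
Stacked shares of naive-only, both, effector-only and neither cells (percent of CD8 T cells, each thinned to 1000 UMIs) for 5 bins of UMIs in the BTYNB library, for the combination library, and for the narrowed deep cells. The naive-only share is 53.3% in the lowest and 11.1% in the highest BTYNB bin, and the effector-only share 12% and 55.6%.

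Effector-only cells carried most of the inhibitory receptor transcripts. The comparison with naive-only cells describes transcripts in cells that were split by other transcripts of the same counts, and no test applies. Pdcd1 had 63 UMIs in 39 of 194 effector-only cells and 5 UMIs in 3 of 319 naive-only cells. These are 95.7 and 7.5 CPM, a log2 ratio of 3.67 (2.37 to 5.35). Lag3 was at 89.7 against 6.00 CPM, 3.90 (2.47 to 5.82), and Havcr2 at 144 against 6.00 CPM, 4.59 (3.18 to 6.49). Tigit had 74 UMIs in 39 effector-only cells and 1 UMI in the naive-only cells, 6.23 (3.70 to 11.55). The contrast was smaller for genes that naive-only cells also carried. Ctla4 was at 324 against 110 CPM, 1.56 (1.17 to 1.97), and Tox at 395 against 94.5 CPM, 2.06 (1.66 to 2.48). The exhaustion list as a whole, which holds no gene of the split, summed to 1843 against 357 CPM, a log2 ratio of 2.37. Of its 14 genes 9 reached 50 UMIs over both classes, and all 9 of them were called higher. Of 4291 such genes 255 (5.94%) were called higher and 141 (3.29%) lower, with a median of 0.04. Genes such as Tigit (74 and 1 UMIs) and Havcr2 (95 and 4 UMIs) reached that minimum through the effector-only cells. The count of 9 was thus partly set by the minimum, which the sum over all 14 genes does not use. Cxcl13 and Layn had 0 UMIs in both classes, and Cd101 had 10 and 3 UMIs.

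Effector-only cells also differed in genes of residence and innate-like receptors. Of 5 residence genes 4 were called higher and none lower, and of 8 innate-like receptor genes 6 and none, against the 5.94% and 3.29% of all genes. Genes such as Klre1 (110 and 5 UMIs) and Trgc2 (180 and 8 UMIs) reached the minimum through the effector-only cells. These counts were thus partly set by the minimum. Summed without a minimum, the residence list was at 1617 against 213 CPM and the innate-like receptor list at 1717 against 485 CPM. Over all cells of both classes the activation list was not higher as a whole, with 1 of 9 genes called higher, a median of 0.11, and a sum of 4753 against 5218 CPM. Xcl1, a chemokine that attracts Xcr1+ dendritic cells, was at 479 against 36.0 CPM, a log2 ratio of 3.73 (3.13 to 4.4). Rgs1, which dampens chemokine receptor signals, was at 751 against 69.0 CPM, and the integrin gene Itga1 at 88.1 against 1.5 CPM. The called activation gene was Tnfrsf9, the costimulatory receptor 4-1BB, at 328 against 15 CPM, 4.45 (3.54 to 5.53). In contrast, the early activation marker Cd69 did not separate the classes over all their cells, at 588 and 548 CPM, 0.10 (-0.11 to 0.31). Il2rb, a chain of the IL-2 and IL-15 receptors, was at 1173 against 192 CPM, 2.61 (2.34 to 2.89), and Trgc2, a constant gene of the gamma chain, at 274 (61 cells) against 12 CPM (3 cells). With 10 CPM added, Ccl3 and the small neuronal protein gene Nrn1 had the largest called ratios, with Ccl3 at 748 against 10.5 CPM and Nrn1 at 468 against 21 CPM. Ly6c2 was alike in the single classes, at 577 and 551 CPM, and was at 1297 CPM in the cells with both.

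Lower in effector-only cells were naive genes that the split had not used and part of the interferon-response list. Of the 6 remaining naive genes 5 were called lower and none higher over all cells of both classes. Tcf7 was at 456 against 1159 CPM, -1.35 (-1.54 to -1.15), S1pr1 at 65.3 against 248 CPM, and Bach2, a repressor that keeps T cells quiescent, at 135 against 414 CPM. Il7r was at 593 against 1114 CPM, a log2 ratio of -0.91 that was not called. From the interferon list Gbp2 was at 59.3 against 189 CPM, -1.67 (-2.23 to -1.15) and Iigp1 at 13.7 against 63.0 CPM. The GTPase Igtp and Ifi213, which are named by the size of their change, were at 22.8 against 140 CPM and 54.7 against 261 CPM.

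Depth and proliferation moved with these classes. Median UMIs were 1788 in naive-only and 2615 in effector-only cells, and 24 (7.52%) and 55 (28.4%) of them had at least 2 UMIs of the proliferation list. Within cells of 1500 to 3000 UMIs (100 effector-only and 189 naive-only cells) the exhaustion list was at 1486 against 316 CPM, a log2 ratio of 2.23. Without the proliferating cells it was 2.27, and among narrowed cells 2.51. The 6 remaining naive genes moved more, from -1.24 to -0.60 within the range, -0.64 without proliferating cells and -1.29 among narrowed cells. For the interferon list the ratio of -1.15 was -1.01, -0.99 and -1.36 in these subsets. The activation list turned from -0.13 to 0.16 within the range and 0.18 without proliferating cells, and was at -0.11 among narrowed cells. Within 1500 to 3000 UMIs the ratio of Tcf7 was -0.62 (-0.87 to -0.37) and no longer past the call, Cd69 was at 0.60 (0.33 to 0.87) and Ly6c2 at 0.62 (0.34 to 0.89). Single receptors kept their side with fewer counts. In the same range Pdcd1 gave 2.62 (0.70 to 5.10), and Lag3 and Tigit had 16 and 18 UMIs in effector-only cells and 0 in naive-only cells.

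**Figure D4:**
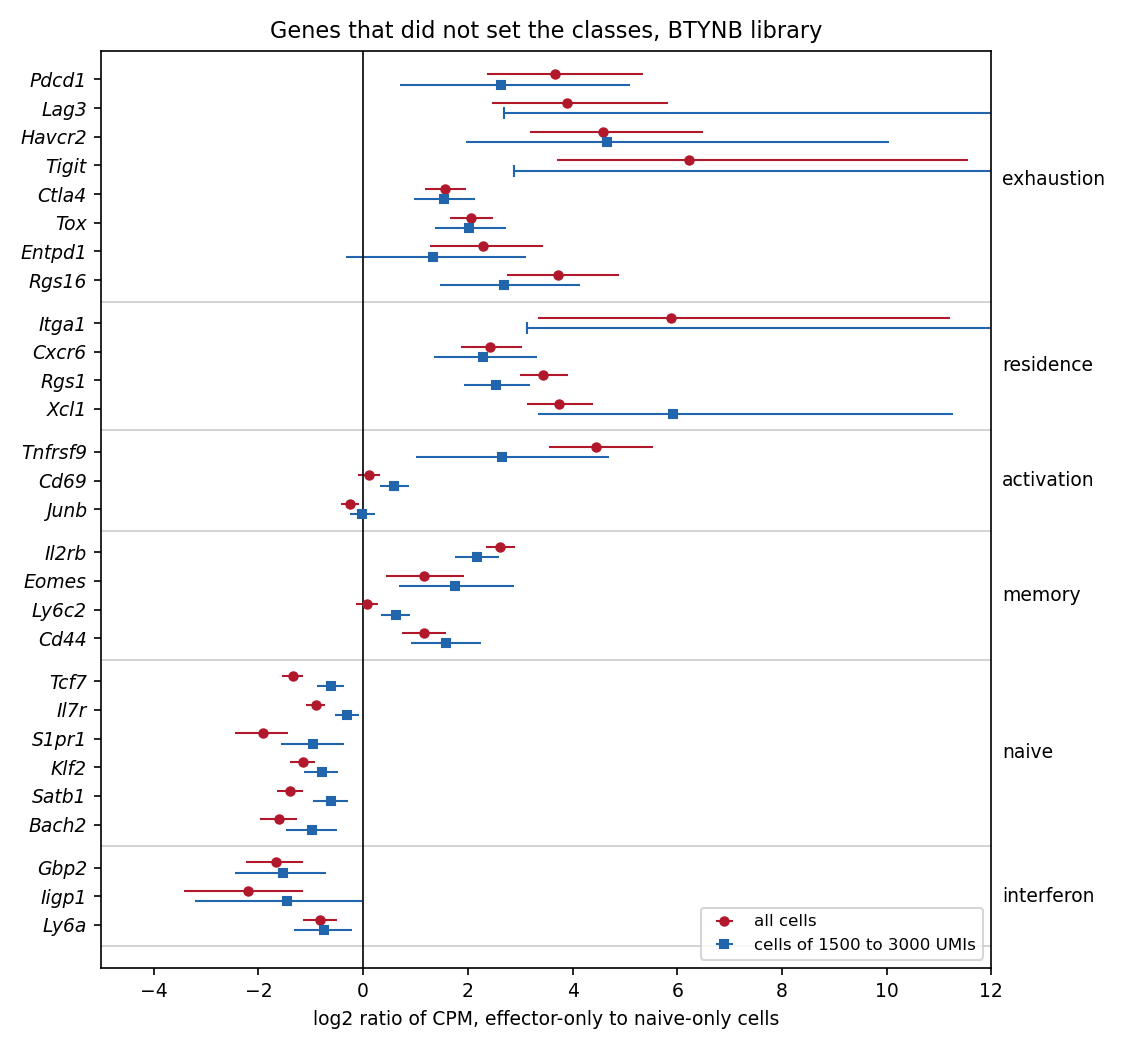
Log2 ratios of CPM between effector-only and naive-only CD8 T cells of the BTYNB library with their 95% counting intervals, over all cells (194 and 319) and within 1500 to 3000 UMIs (100 and 189). Lines without a point start at the lower bound where naive-only cells had 0 UMIs, and Pdcd1 lies at 3.67 over all cells and 2.62 within the range.

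Over all BTYNB members, inhibitory receptors were found together in few cells, and this share moved with depth. The counts in this paragraph before the tumour cells were not thinned. At least 2 of the receptors below were found in 27 of 54 deep cells (50.0%). In the narrowed set they were found in 24 of 32 deep cells (75%) and 61 of 973 smaller cells (6.27%). The part of depth in these shares was not tested. Of the 1080 BTYNB members 791 (73.2%, 70.5 to 75.9) had no UMI of Pdcd1, Lag3, Havcr2, Tigit or Ctla4, 201 had 1 of them, and 88 (8.15%, 6.59 to 9.94) had 2 or more. A Pdcd1 UMI was found in 52 cells (4.81%, 3.62 to 6.27), with Tox in 38 of them, Havcr2 in 22, Lag3 in 21 and Tcf7 in 7. The factor Tcf7 marks the less differentiated of the exhausted cells, and most Pdcd1 cells here had Tox without a Tcf7 UMI. Gzmb was found in 18 of the 52 and proliferation transcripts in 32. In thinned tumour cells the share with a Pdcd1 UMI was 0.0844% and with a Lag3 UMI 0.704%.

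Among deep cells, the only ones for which both libraries can be set side by side, the shares of effector-only cells and of cells with inhibitory receptors had overlapping intervals in BTYNB and combination. Effector-only cells were 30 of 54 in BTYNB and 18 of 35 in combination, and 24 of 32 and 15 of 19 (78.9%, 54.4 to 93.9) in the narrowed sets. At least 2 of the 5 inhibitory receptors were found in 27 of 54 (50.0%, 36.1 to 63.9) and 17 of 35 cells (48.6%, 31.4 to 66.0), and in 24 of 32 (75%, 56.6 to 88.5) and 14 of 19 narrowed cells (73.7%, 48.8 to 90.9). At least 2 proliferation UMIs were found in 30 of 32 and 18 of 19 narrowed cells, while Mki67 gave a log2 ratio of 0.37 (0.06 to 0.68) of combination to BTYNB, and 0.67 (0.33 to 1.01) in the narrowed sets. In the narrowed sets the effector list summed to 9876 CPM for BTYNB and 9135 CPM for combination cells, the exhaustion list at 2255 and 2381 CPM, and the naive list at 1167 and 1011 CPM. The intervals of these shares are wide and do not show that the libraries were alike.

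Most single exhaustion genes did not differ beyond counting error. Pdcd1 was at 80.7 CPM (19 UMIs, 13 cells) in the combination and 72.4 CPM (32 UMIs, 18 cells) in BTYNB, a log2 ratio of 0.16 (-0.74 to 1.02), and 0.01 (-0.97 to 0.94) in the narrowed sets. Lag3 gave 0.48 (-0.37 to 1.30), Havcr2 0.47 (-0.12 to 1.05), Tigit -0.41 (-1.42 to 0.52) and Tox -0.02 (-0.48 to 0.43). In the narrowed sets Lag3, Havcr2 and Tigit lay at -0.49, -0.28 and -0.64, so the side of Lag3 and Havcr2 turned with the cells taken. With 0 UMIs allowed of B cell, Lyz2 and keratin genes, which left 11 combination cells, Pdcd1 was at -1.53 with 10 CPM added. Rgs16 gave 0.78 (0.27 to 1.29) and 0.56 (0.03 to 1.09) and was the gene of this list whose interval lay above 0 in both sets. Of the 14 exhaustion genes 10 reached 20 UMIs, and 0 of these were called in either direction. Over all 5215 genes with at least 20 UMIs, 122 (2.34%) were called higher and 133 (2.55%) lower in the combination, with a median of 0.02.

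Gzmk and Eomes stood out among the effector and memory genes. Gzmk, a granzyme of memory-like CD8 T cells, had 26 UMIs in 14 of 35 combination cells and 7 UMIs in 2 of 54 BTYNB cells. These are 110 and 15.8 CPM, a log2 ratio of 2.80 (1.56 to 4.25). In the narrowed sets it had 24 UMIs in 12 of 19 cells and 1 UMI in 1 of 32, 5.45 (2.83 to 10.81). Eomes was at 157 CPM (37 UMIs, 17 cells) against 24.9 CPM (11 UMIs, 7 cells), 2.66 (1.66 to 3.78), and 3.28 (2.0 to 4.83) in the narrowed sets with 13 of 19 against 5 of 32 cells. A single combination cell held 12 of the 37 Eomes UMIs, and without it the Eomes ratio was 2.18 (1.11 to 3.35). For Gzmk, 6 of the 7 BTYNB UMIs lay in 1 cell. The NK receptors Ncr1, Klrb1c, Klra8 and Klra4 were at 0 in all 35 combination cells. The innate-like receptor genes Klrd1, Klre1 and Klrk1 had 61, 22 and 14 UMIs in them. The part of other cell types in these levels was not tested. Tumour cells had 0.0904 CPM of Gzmk and 0.199 CPM of Eomes in the combination library. Klf2, a factor that keeps S1pr1 transcribed, was at 484 against 165 CPM, 1.55 (1.12 to 2.0), and 1.74 (0.99 to 2.52) in the narrowed sets. S1pr1 itself gave -0.09 (-1.35 to 1.07). Of 11 naive genes measured, 1 was called higher and 0 lower, with a median of -0.17. In the narrowed sets 1 of 8 was called higher and 2 lower, with a median of -0.35, and Ccr7 was at -3.59 (-8.96 to -0.96).

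Other effector genes depended on the cells taken or on 1 cell. Ccl5 was at 4373 against 2617 CPM, 0.74 (0.62 to 0.86), and 0.38 (0.23 to 0.54) in the narrowed sets. Gzmb was at 492 against 375 CPM, 0.39 (0.04 to 0.74), and 0.14 (-0.27 to 0.55) in the narrowed sets. Gzma gave 1.65 (1.03 to 2.28), but 30 of its 60 combination UMIs and 22 of its 36 BTYNB UMIs lay in 1 cell each. Without that combination cell the Gzma ratio was 0.68 (-0.07 to 1.42), and -0.29 (-1.40 to 0.73) in the narrowed sets, and without that BTYNB cell it was 2.99 (2.13 to 3.94). Prf1 gave 0.14 (-0.29 to 0.57) and -0.66 (-1.21 to -0.14), and Ccl3 0.27 (0.04 to 0.50) and -1.52 (-1.90 to -1.15). For Ccl3, 1 cell held 181 of 259 combination UMIs and 1 cell 186 of 403 BTYNB UMIs.

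Among the genes called lower in the combination (2.55% of all genes) were 2 of 5 residence genes, Xcl1 and Itga1, and 2 of 11 activation genes, Tnfrsf9 and Il2ra, with 0 called higher in either list. Il2ra, with 1 UMI in the combination and 24 UMIs in BTYNB, reached the minimum of UMIs through the BTYNB cells. The deep BTYNB cells also summed to more UMIs, 442161 against 235537. The counts of genes called lower were thus partly set by the minimum. Most of both lists was not called. Cxcr6 was at 183 CPM in both libraries, and Itgae lay at 0.15 (-0.56 to 0.84), Cd28 at -0.46 (-1.17 to 0.22) and Icos at 0.73 (-0.14 to 1.60). In the narrowed sets 1 of 3 residence and 2 of 9 activation genes were called lower. Xcl1 had 15 UMIs in 2 combination cells and 235 UMIs in 19 BTYNB cells, at 63.7 and 531 CPM, a log2 ratio of -3.06 (-3.92 to -2.31). It was -2.79 (-3.66 to -2.03) in the narrowed sets. A single BTYNB cell held 105 of these UMIs, and without it the ratio was -2.24 (-3.12 to -1.47). Tnfrsf9 was at 161 CPM in 13 of 35 cells against 364 CPM in 32 of 54, -1.17 (-1.72 to -0.66), and -1.78 (-2.48 to -1.14) in the narrowed sets. Above 7500 UMIs, with 8 combination and 24 BTYNB cells, it was -0.43 with 10 CPM added and was not called. Il2ra, the high-affinity chain of the IL-2 receptor, had 1 UMI against 24 UMIs in 12 cells, -3.68 (-9.04 to -1.06). Trbc1, 1 of the 2 alternative constant genes of the beta chain, had 17 UMIs in 5 combination cells and 146 UMIs in 32 BTYNB cells, -2.19 (-3.01 to -1.47), while Trbc2 gave -0.37 and Trac -0.01. A T cell uses 1 of both beta constant genes. Il18rap, a chain of the IL-18 receptor, had 0 UMIs in the 19 narrowed combination cells and 27 UMIs in 17 of the 32 narrowed BTYNB cells.

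**Figure D5:**
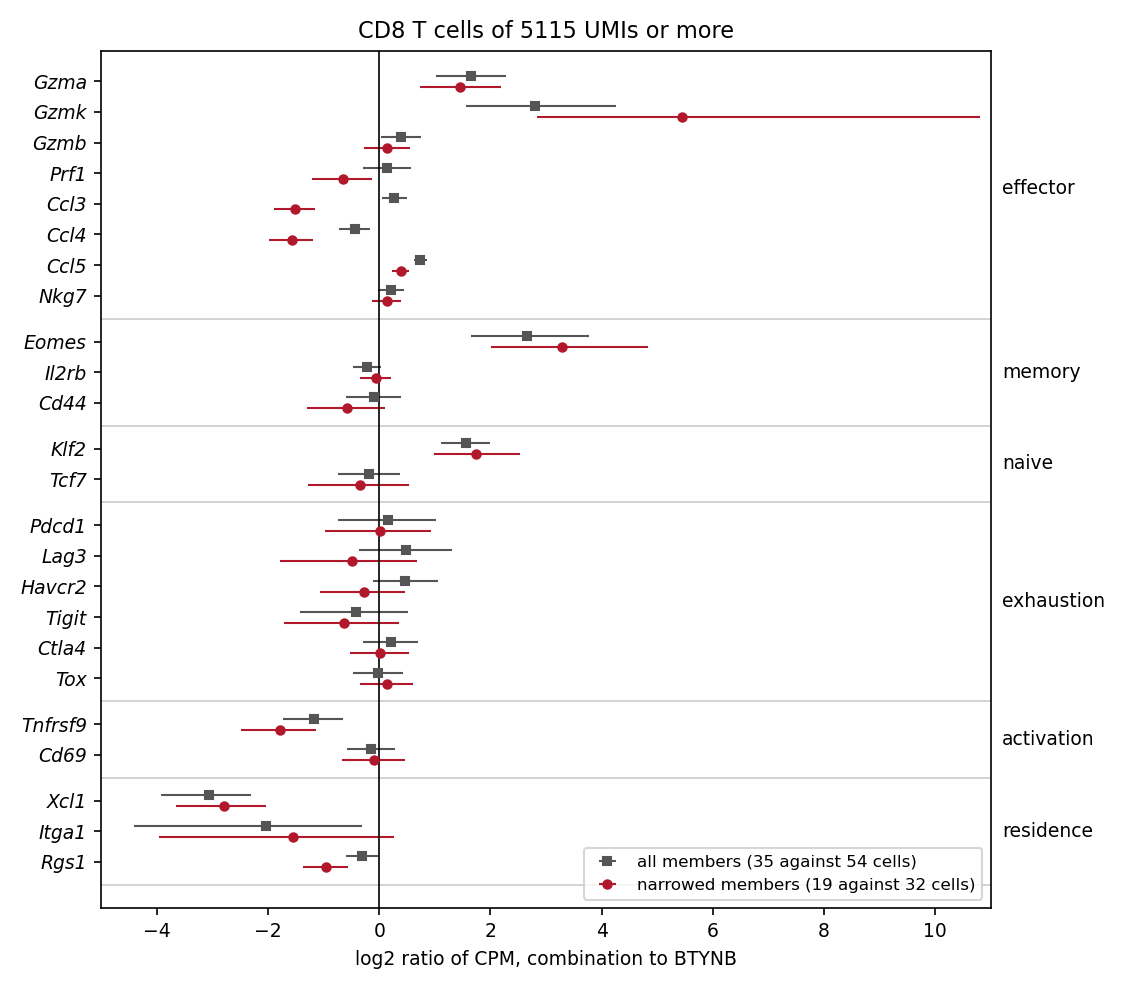
Log2 ratios of CPM between combination and BTYNB deep CD8 T cells with their 95% counting intervals, for all members (35 and 54 cells) and narrowed members (19 and 32). Gzmk (2.80 and 5.45) and Eomes (2.66 and 3.28) lie above 0 in both sets, Xcl1 (-3.06 and -2.79) below it, and Pdcd1 (0.16 and 0.01) near it.

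Most other genes at the ends of this comparison were abundant in other cells or lay in few cells. Of the 12 genes called higher by the largest ratios, Hspb1, Arhgap29, Lgals7, C1s1, Tenm3, Ildr2, Fn1, Sparc and Tm4sf1 stood between 131 and 2074 CPM in combination tumour cells. Hspb1 for example was at 144 CPM in combination members, 11.3 CPM in BTYNB members and 1013 CPM in combination tumour cells, and Sparc at 183, 33.9 and 1850 CPM. Hdac9 was at 80.7 CPM in combination members and 5.64 CPM in tumour cells. Of the 12 called lower, the granule genes Prtn3, Mpo, Elane, Ctsg and Ms4a3 had 0 UMIs in the combination and all their UMIs in 2 or 3 BTYNB cells, S100a8 had 38 UMIs in 5 cells, and Klra8 25 UMIs in 2. The tumour list stood at 284 CPM in combination members and 111 CPM in BTYNB members, as given above, and its part in the comparison was not tested.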

How the data were processed

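Malignant ascites of 4 treatment groups was profiled on the BD Rhapsody system, with 1 library per group and the animals of a group pooled. Per the methods of the study, reads were processed with the BD Rhapsody Sequence Analysis Pipeline. The submitters' processing notes name the build GRCm39. The authors deposited 1 matrix of raw UMI counts per library, with whole numbers and no normalization. Whether doublets were removed before deposit is not given in the sources used here. A genome of that build was not used here, and no coordinates or sequences are given.

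Matrices were joined over 29835 genes with numpy 2.4.6, scipy 1.17.1 and pandas 2.3.3 (python 3.11.15), and figures drawn with matplotlib 3.10.9. The limits of 200 genes and 33% mitochondrial UMIs follow the study's methods, with genes of the prefix mt- in place of its catalogue. Scrublet scores came from scanpy 1.11.5, and no cell was removed by them in the values reported. The members, gene lists and comparisons were chosen with earlier results of these data known. Any list gene may be named, together with the 12 genes called with the largest ratios in each direction. Summed UMIs were scaled to CPM. A gene was called at an absolute log2 ratio of 1 with 10 CPM added. With 1 library per group, no p-value was computed. Thinning drew UMIs without replacement with a fixed seed. The ratio script was checked on simulated counts. The narrower member set, the range of 1500 to 3000 UMIs, the exclusion of proliferating cells and of the highest single cell were chosen after seeing the data. Deep cells are those of at least 5115 UMIs, the smallest cell deposited for the combination. The deep CD8 T cells summed to 442161 UMIs in BTYNB and 235537 in combination. A few listed genes are not reported here.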

Additional observations from a re-analysis of the deposited data

How the results depend on the processing

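Of 256 recomputed ratios of named genes, 228 stayed within their interval and 28 did not. No called ratio changed sign when 1 choice was altered at a time (that of Gzma turned to -0.29 in the narrowed sets without 1 combination cell), while uncalled ratios, such as those of Pdcd1, Lag3 and Havcr2, did. The share of CD8 T cells in BTYNB was 4.16% with a CD3 minimum of 3, 4.78% with a CD8 minimum of 2, 4.75% with 0 UMIs allowed of B cell, Lyz2 and keratin genes and 5.5% in the narrowed set. Among deep cells it was 0.652% (0 UMIs allowed) and 0.580% (narrowed), and in combination 0.156% and 0.270%. Naive-only cells in BTYNB were 26.0% (CD3 of 3) and 23.8% (no thinning), effector-only cells 22.2% (CD3 of 3), 26.0% (thinned to 500 UMIs) and 8.33% (no thinning), and cells with both 29.4% (500 UMIs) and 66.8% (no thinning). Effector-only cells in combination were 78.9% (narrowed) and 14.3% (no thinning). As a mean over cells, the naive, effector and exhaustion lists in BTYNB were at 6508, 4651 and 634 CPM, and in the narrowed set at 6018, 5401 and 801 CPM. Genes called higher in combination were 33 with a minimum of 40 UMIs. Genes called lower were 304 with 0 UMIs allowed, 341 at a floor of 7500 UMIs and 40 with a minimum of 40 UMIs, where the floor left 8 combination and 24 BTYNB cells. Without proliferating cells the proliferation list was -0.27 (log2) in effector-only against naive-only cells, where it had been 1.82, which follows from leaving those cells out. No paired analysis was possible because each group is 1 library. Few deep cells and 1 library per group limit every comparison between treatments, and neither shows the spread between animals.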

Other observations

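Costimulation and B cell zone receptors differed between CD8 T cells and CD4 T cells of the BTYNB library. Cd28 was at 191 CPM in CD8 and 457 CPM in CD4 T cells, and Tnfrsf4, which encodes OX40, at 10.7 and 58.4 CPM. Tnfrsf9 went the other way, at 100 and 26.3 CPM. Cxcr5, the receptor for the follicle chemokine Cxcl13, was at 37.6 CPM against 10.2 CPM. Within CD8 T cells Cxcr5 was at 9.12 CPM in effector-only, 34.5 CPM in naive-only and 53.8 CPM in cells with both sets of transcripts.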
